A study of Mus spretus with 19 samples.

Results

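The livers of Algerian mice (Mus spretus) trapped at the lower course of the Domingo Rubio stream, a polluted site (DR1), were compared with those trapped at the Santa Olalla lagoon, the unpolluted site (SOL). The comparison rests on 8 of the 19 arrays of the study, chosen by site label: 4 arrays of DR1 and 4 of SOL. At each site, liver RNA of 9 male mice was pooled into 1 sample, and the 4 arrays are repeated labellings and hybridizations of that pool, so the errors and p-values below measure the spread between labelled aliquots and arrays and not the spread between mice or pools. The other sites, used only to place DR1, were the phosphogypsum stacks (PS, 4 arrays) and the medium and upper course of the same stream (DR4, 4 arrays, and DR6, 3 arrays), all polluted per the labels. Ages of the mice were not given in the labels. Each site had a slide and a scan of its own, so site and slide cannot be told apart.

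The liver clears metals, organic pollutants and hormones from the blood and makes most plasma proteins. Metallothioneins bind zinc, copper and cadmium through their many cysteines and are induced by these metals, by glucocorticoids and by inflammation. The aryl hydrocarbon receptor (AHR) switches on Cyp1a enzymes when dioxin-like or polycyclic aromatic compounds bind it. PPARA is the fasting-responsive receptor that drives fatty acid oxidation, and pulses of growth hormone acting through STAT5 set the male pattern of mouse liver genes.

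Each array carried probes of 60 bases designed for Mus musculus, so a base that differs in Mus spretus can lower a probe's signal. The probes below read genes on which the comparison turns, written 5′ to 3′ as in the scanner files; in Mt1 the capitals mark the cysteine codons of the reading frame that holds most of them, 6 in all, and the others are in lower case throughout.
Mt1: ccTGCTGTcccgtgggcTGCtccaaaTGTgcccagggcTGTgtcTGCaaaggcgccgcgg
Slc39a5: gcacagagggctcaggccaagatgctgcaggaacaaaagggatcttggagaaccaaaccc
Sesn1: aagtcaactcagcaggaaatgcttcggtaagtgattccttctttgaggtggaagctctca
Ckap2: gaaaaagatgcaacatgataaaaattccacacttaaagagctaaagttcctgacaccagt
Pklr: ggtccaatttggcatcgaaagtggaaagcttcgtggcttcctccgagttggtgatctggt
Soat2: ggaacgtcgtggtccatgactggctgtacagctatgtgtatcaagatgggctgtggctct
The mm8 mouse positions given in the files are chr8:97069240-97069299 for Mt1, chr10:127800233-127800655 for Slc39a5, chr10:41586815-41590977 for Sesn1, chr8:23634457-23634516 for Ckap2, chr3:89230912-89231430 for Pklr and chr15:101989129-101990046 for Soat2. The Slc39a5, Sesn1, Pklr and Soat2 probes map over 423, 4163, 519 and 918 bases of the genome, more than their 60 bases, and so join exons of the spliced mRNA. The Mt1 and Ckap2 probes map to 60 bases in a row. The Sesn1 probe shown is not its brightest, so the signals of Sesn1 given below were read by another probe. The other genes were read by the probes shown.

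Signal is given below as relative signal, the background-subtracted processed signal of a probe divided by the 75th percentile of its array, so that 1 is the level exceeded by 25% of gene spots. Before scaling, this percentile lay between 186.1 and 285.2 on the DR1 arrays and between 99.47 and 167.1 on the SOL arrays, and 55.2% ± 2.13 of gene spots at DR1 and 53.9% ± 2.07 at SOL were well above background (SD, n = 4 each). The DR1 slide was read with an older design file, so gene names were taken from the SOL files through the probe. Hepatocyte markers were present in both pools: none of 15 hepatocyte markers was called, and all 15 were well above background on every array, of which 3 were saturated on each DR1 and SOL array and so have no measured change. The pools were not of hepatocytes alone: each of 20 exocrine pancreas markers tested exceeded background on every DR1 and SOL array, with a summed relative signal of 1000 to 1120 at DR1 and 1930 to 2170 at SOL. In bulk RNA, fewer cells of a type and less RNA per cell cannot be told apart.

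Of the arrays compared, SOL array 1 and DR1 array 4 stood apart from the other arrays of their site in a band across the middle. On SOL array 1, 690 of 13602 genes with closely agreeing values on the other 3 arrays were off by 2-fold or more, 585 of them low, and 610 lay in the middle rows, where 20.6% of genes were off, against 0.752% elsewhere on that array. On DR1 array 4, 264 of 11470 genes were off, 228 of them low, and 217 lay in the same rows, 8.87% of the genes there. On the other 6 arrays between 21 and 175 genes were off. Genes read in these rows are given below with and without the middle rows of these 2 arrays where that changed a call.

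**Figure D1:**
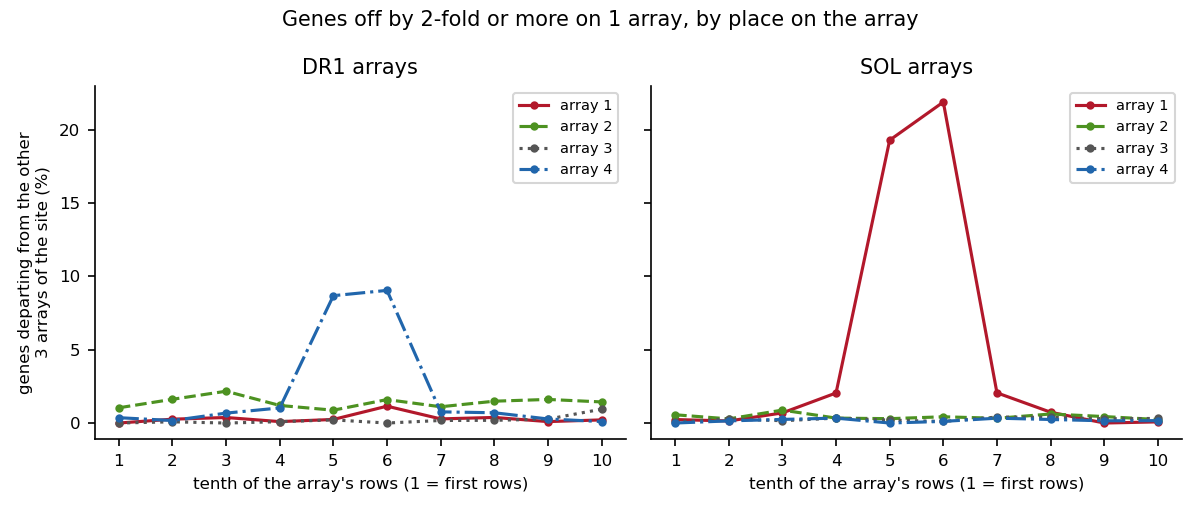
Share of genes, in percent, whose value on 1 array differs by 2-fold or more from the mean of the other 3 arrays of its site, by position along the array's rows, for the 4 DR1 arrays (left) and the 4 SOL arrays (right); only genes on which those 3 arrays lie within 0.5 on the log2 scale are counted. SOL array 1 reaches 21.9% and DR1 array 4 reaches 9.05% in the middle rows, and the other arrays reach at most 2.17%.

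Of 16346 genes and transcripts tested, 994 (6.08%) differed between DR1 and SOL at an adjusted p under 0.05 and a change of 2-fold or more (limma, Benjamini-Hochberg), which is what a call means below. Of these, 577 (3.53%) were higher and 417 (2.55%) lower at DR1, and 169 changed 4-fold or more, 128 of them higher. The shares of 3.53% and 2.55% are those of all genes, to be set beside each count of called list members below. For 242 of the calls the lower site was not well above background, so that only a bound on the fold is known, written below as at least that fold. The bound sets the brighter site's mean against the dim site's mean of whichever was higher on each array, the dim probe's signal or the lowest signal well above background. A further 8 calls were not well above background at either site. At an adjusted p under 0.05 alone 7796 genes differed, and the median change over all genes was 0.01 on the log2 scale. The count depends on how background is treated: with normexp correction of the raw signals, whose offset of 50 compresses the differences of dim probes, 257 genes were called (176 higher and 81 lower), and 246 with quantile scaling added. With the 5 pools as units, DR1 and SOL have 1 value each, and the spread comes from the 3 other pools, each of another site. Such a fit cannot measure the spread between pools of 1 site, so no call below rests on it.

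**Figure D2:**
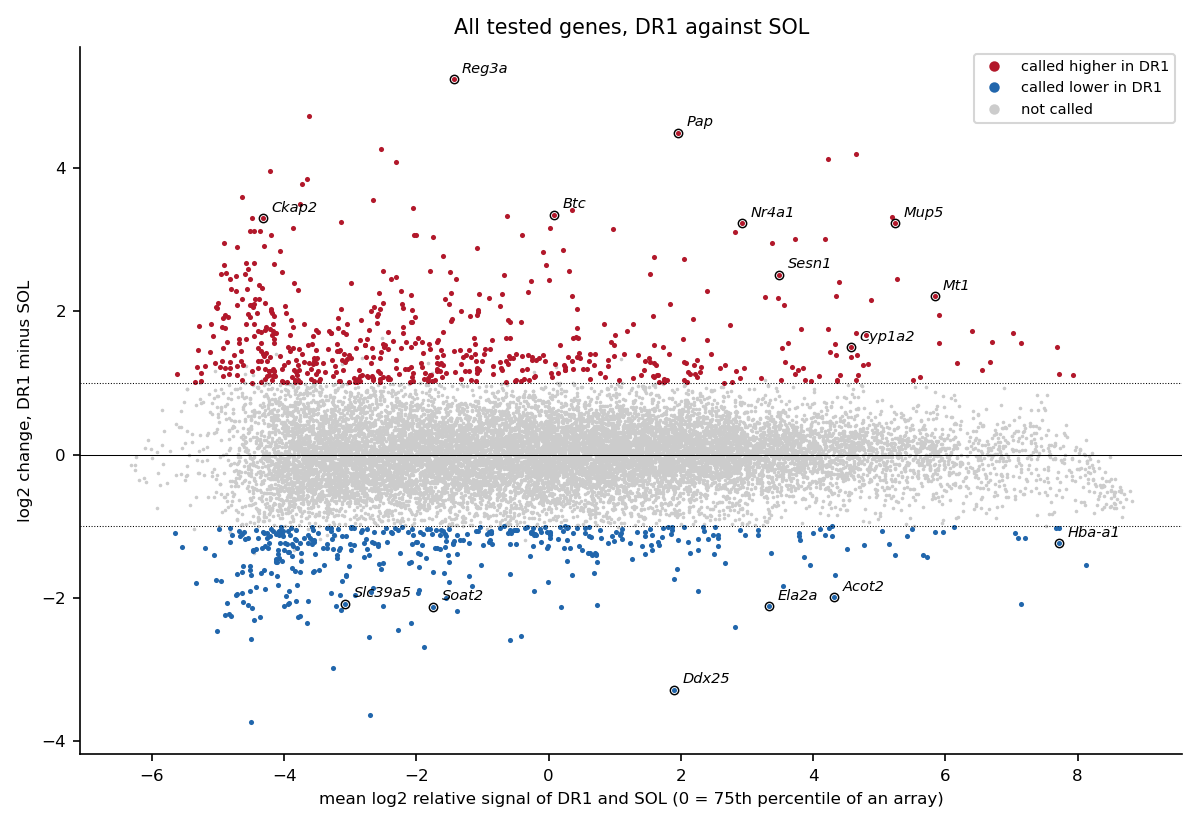
Change of each tested gene, DR1 minus SOL, on the log2 scale (vertical) against its mean log2 relative signal at both sites (horizontal, 0 is the 75th percentile of an array); the 577 genes called higher are red, the 417 called lower blue, the rest grey, and dotted lines mark 2-fold. Reg3a and Pap stand at the top, Ddx25 lies lowest among the genes named in the plot, and many calls sit at low signal.

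Genes that bind and move metals changed at both ends of the list. Of 34 metal-handling genes tested, of 35 listed, 4 were called higher and 2 lower, with a median change of 0.07. Mt1, a metallothionein, had relative signals of 117, 98.2, 139 and 143 on the DR1 arrays, against 28.8, 23.0, 27.5 and 27.9 on the SOL arrays. No array of the groups overlapped, as for 5863 genes (35.9% of those tested), and the change was 2.20 ± 0.11 on the log2 scale (SE, limma adjusted p = 1.51e-10). Mt1 lay between 65.9 and 71.5 at PS, 137 and 161 at DR4 and 85.8 and 110 at DR6, so SOL was the lowest site. Mt2, its partner gene, read 285, 342, 237 and 401 at DR1, where 3 arrays were saturated, against 141, 131 and 155 at SOL, where the fourth array had an outlier spot (change 1.12 ± 0.13, adjusted p = 3.13e-06). Slc30a1, the zinc exporter of the cell membrane that zinc induces, read 9.15, 8.61, 11.6 and 10.1 at DR1, against 4.02, 3.53, 4.81 and 4.14 at SOL, a change of 1.26 ± 0.10 (adjusted p = 2.03e-08). Its other kept probe gave 0.82, below 2-fold.

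Of 11 genes of the Slc39 family of zinc and metal importers tested, 2 were called lower at DR1 and none higher. The family was not one of the gene lists. These 2 are the lower calls of the metal-handling list, 5.88% of its 34 genes tested, beside 2.55% of all genes. Slc39a4, a zinc importer of the cell surface, read 34.8, 30.4, 30.7 and 32.3 at DR1, against 87.8, 88.5, 82.8 and 86.1 at SOL (change -1.43 ± 0.05, limma adjusted p = 1.6e-12). Slc39a5, a zinc importer of the basolateral membrane, read 0.0659, 0.0733, 0.0418 and 0.0556 at DR1, against 0.300, 0.230, 0.259 and 0.199 at SOL (change -2.08 ± 0.27, adjusted p = 8.42e-06). Both genes were low on every DR1 array, and Slc39a5 was well above background on 2 of the 4. It is also a gene of the exocrine pancreas, whose markers were lower at DR1, and their part in this change was not tested. Slc11a2, a transporter of iron and other metals, was called higher through its brightest probe (1.23 ± 0.07, adjusted p = 6.81e-10), but its other kept probes gave 0.00 and -0.62 and their mean was not called, so the gene has no agreed direction. Under normexp correction Mt1, Mt2, Slc30a1 and Slc39a4 stayed called, and Slc39a5 and Slc11a2 did not.

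Among genes of iron control both hepcidin genes were higher at DR1. Hamp1, which encodes hepcidin, the liver hormone that lowers iron uptake, read 113, 83.6, 129 and 158 at DR1, against 30.9, 25.8, 35.3 and 31.0 at SOL (change 1.95 ± 0.14, limma adjusted p = 1.15e-08). Hamp2, its close copy, read 126, 125, 145 and 175 at DR1, against 63.5, 61.3, 64.6 and 59.8 at SOL (change 1.18 ± 0.08, adjusted p = 6.17e-09), and probes of such copies can share signal. Tfrc, the transferrin receptor, which falls when cells are rich in iron, read 0.569 to 0.641 at DR1, against 1.26 to 1.29 at SOL (change -1.10 ± 0.05, adjusted p = 1.67e-11). Lcn2, a siderophore-binding protein of neutrophils and stressed hepatocytes, was at least 1.92-fold higher at DR1 (adjusted p = 3.26e-05), well above background on 3 DR1 arrays and on no SOL array. Of 36 iron and heme genes tested, 4 were called higher and 2 lower, with a median of 0.04; neither the ferritins nor the enzymes of heme synthesis on the list were called. Tfrc and Lcn2 lost their calls under normexp correction.

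AHR targets were higher at DR1 in 3 of 9 members tested, of 13 listed, with a median of 0.70, and none was lower. Cyp1a2, the main Cyp1 enzyme of liver, read 42.5, 42.8, 37.5 and 38.5 at DR1, against 14.9, 14.4, 13.9 and 13.7 at SOL (change 1.5 ± 0.07, limma adjusted p = 2.07e-11). DR1 was the highest of the 5 sites for this gene, with 22.6 to 23.8 at PS, 16.3 to 17.9 at DR4 and 12 to 14.7 at DR6. Cyp1a1 was far dimmer, 0.563, 0.311, 0.590 and 0.639 at DR1, against 0.191, 0.182, 0.240 and 0.228 at SOL (change 1.28 ± 0.18, adjusted p = 1.78e-05), and was highest at DR6, 0.761 to 0.920. Tiparp, an AHR-induced ADP-ribosyltransferase that restrains the receptor, read 4.70, 5.15, 6.68 and 7.25 at DR1, against 1.61, 1.46, 1.56 and 1.52 at SOL (change 1.93 ± 0.11, adjusted p = 4.19e-10). Nqo1, an AHR and NRF2 target that reduces quinones, lay just inside 2-fold at 0.89 ± 0.09 (adjusted p = 1.02e-06), with 6.73 to 8.76 at DR1 and 3.68 to 4.77 at SOL. Cyp1a1 lost its call under normexp correction, while Cyp1a2 and Tiparp kept theirs.

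Most of the broader detoxification lists held few calls. None of 31 NRF2 targets and none of 23 glutathione S-transferases was called, with medians of -0.05 and -0.21. Hmox1, heme oxygenase, differed by 0.27 ± 0.09 (limma adjusted p = 0.0182), and Gclc, which makes glutathione, by -0.07 ± 0.15 (adjusted p = 0.747). Of 40 Cyp2 and Cyp3 enzymes 1 was called, Cyp2b13, a female-biased enzyme, lower at DR1 by -1.12 ± 0.08 (adjusted p = 7.22e-09). Cyp2b10, the usual marker of the receptor CAR, gave 0.27 ± 0.08, and Cyp3a11, the usual marker of PXR, gave -0.54 ± 0.11, with 2 DR1 arrays saturated. Of 31 genes of the Ugt and sulfotransferase list tested, 3 were called lower (9.68%, beside 2.55% of all genes). Only 1 was called higher (3.23%, beside 3.53%), the median was -0.06, and 15 lay above 0. Ugt1a9 (-1.27 ± 0.07) and Ugt1a1 (-1.05 ± 0.09), which add glucuronic acid and share exons, were among the lower calls. Ugt1a9 read 1.96 to 2.20 at DR1, against 4.80 to 5.06 at SOL. Ugt1a1 read 4.90 to 5.51 at DR1, against 10.1 to 11.7 at SOL, and lost its call under normexp correction. Gpx3, the secreted glutathione peroxidase, was the 1 antioxidant enzyme of 27 called higher (1.10 ± 0.13), a call lost under normexp correction or without DR1 array 2.

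Immediate early genes, which cells switch on within minutes of a stimulus, were higher at DR1 in 8 of 24 members tested and lower in none (median 0.85). Nr4a1, an orphan nuclear receptor of this class, read 22.8, 25, 23.2 and 22.3 at DR1, against 2.75, 2.55, 2.31 and 2.34 at SOL, a change of 3.23 ± 0.06 (limma adjusted p = 9.9e-16). It was as high at DR6, 22.7 to 25.6, and lowest at PS, 1.58 to 1.66. Fos, a subunit of the factor AP-1, read 0.821, 0.667, 1.02 and 0.979 at DR1, against 0.143, 0.127, 0.168 and 0.153 at SOL (change 2.55 ± 0.12, adjusted p = 3.94e-11). Myc, a growth-promoting factor, changed by 1.64 ± 0.06, Dusp1, a phosphatase that ends MAP kinase signals, by 1.25 ± 0.05, and Egr1, a zinc finger factor, by 1.16 ± 0.13. Egr1 read 5.17 to 8.56 at DR1, 3.54 to 4.31 at PS, 2.28 to 2.53 at DR4, 2.38 to 2.75 at DR6 and 2.75 to 3.73 at SOL. No order of sites was common to these genes: the DR4 arrays were highest for Myc and Dusp1, and the DR1 arrays for Fos and Egr1. Egr1 was below 2-fold with normexp and quantile scaling.

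Of 26 p53 and growth arrest genes tested, 12 were called higher at DR1 and none lower (median 0.93), with 7 to 12 called across the scalings and background settings. Sesn1, a stress-induced inhibitor of the kinase mTORC1, read 25.2, 29.4, 24.3 and 28.6 at DR1, against 5.08, 4.90, 4.62 and 4.28 at SOL (change 2.51 ± 0.08, limma adjusted p = 2.64e-13), and its exon-joining probe gave 2.08. Trp53inp1, a stress-induced partner of p53, read 21.1, 27.1, 21.2 and 25.8 at DR1, against 4.97, 5.76, 4.99 and 5.13 at SOL (2.18 ± 0.08, adjusted p = 1.52e-12). Ddit4, another mTORC1 inhibitor induced by stress, fasting and glucocorticoids, read 150, 154, 144 and 171 at DR1, against 51.0, 47.2, 43.6 and 46.0 at SOL (1.72 ± 0.09, adjusted p = 1.5e-10). Gadd45b, a growth arrest gene, changed by 1.75 ± 0.06 and Bbc3, which encodes the death protein PUMA, by 1.56 ± 0.06. The core p53 targets Cdkn1a and Mdm2 were not called: Cdkn1a, the cell cycle inhibitor p21, by 0.90 ± 0.06 (3.07 to 3.35 at DR1, 1.59 to 1.96 at SOL), and Mdm2, which degrades p53, by 0.38 ± 0.07 (3.91 to 4.70 at DR1, 3.04 to 3.58 at SOL). Sesn1, Trp53inp1, Gadd45b and Ddit4 were at least as high at DR4 as at DR1, and Phlda3, a p53 target that restrains the kinase Akt, was not: 1.63 to 2.44 at DR1, 0.519 to 0.607 at DR4 and 0.552 to 0.866 at SOL (1.53 ± 0.13, adjusted p = 9.82e-08), a call lost with normexp correction and quantile scaling.

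Genes of chromosome segregation and cell division were higher at DR1 in 19 of 31 members tested, of 38 listed, and lower in none (median 1.35). These transcripts were dim, with a median log2 relative signal of -1.23 at DR1, and 6 of the 19 calls have only a bound; with those members set at their bound the median was 1.18. Ckap2, a protein of the mitotic spindle, read 0.168, 0.134, 0.158 and 0.171 at DR1, against 0.0161, 0.0210, 0.0132 and 0.0145 at SOL, where no array was well above background, so it was at least 2.84-fold higher (limma adjusted p = 3.18e-09). Cenpf, a kinetochore protein, read 0.403, 0.442, 0.398 and 0.464 at DR1, against 0.0527, 0.0807, 0.0857 and 0.0752 at SOL, where 3 arrays were well above background (2.56 ± 0.14, adjusted p = 4.21e-10). Ccnb2, a cyclin of the G2 phase, read 1.18, 1.46, 1.23 and 1.09 at DR1, against 0.171, 0.353, 0.334 and 0.365 at SOL; it lies in the middle rows, and without these rows of SOL array 1 and DR1 array 4 the change of 2.07 was 1.87 (adjusted p = 3.46e-10). Ccnb1, the cyclin partner of the mitotic kinase, was at least 2.55-fold higher (adjusted p = 0.000266), Bub1, a checkpoint kinase, at least 1.61-fold (adjusted p = 0.0012) and Kif23, a motor of cytokinesis, at least 1.62-fold (adjusted p = 2.14e-05). The count was 17 to 20 without any 1 array, but 2 under normexp correction, with or without quantile scaling. Ckap2, Ccnb1 and Cenpf lost their calls in both settings. Bub1 and Kif23 sat at 0.00 and -0.03 under normexp correction alone, and at 0.22 and 0.20 with quantile scaling added.

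Genes that copy DNA did not follow: of 39 replication and G1 genes tested, 1 was called higher and 3 lower (median -0.22). Gmnn, geminin, which blocks another round of replication, read 24.6 to 27.0 at DR1, against 7.16 to 8.19 at SOL (1.75 ± 0.07, limma adjusted p = 9.94e-12). Mcm2 and Mcm5, subunits of the replicative helicase, were lower: Mcm2 read 0.196 to 0.295 at DR1, against 0.485 to 0.646 at SOL (-1.25 ± 0.12, adjusted p = 2.19e-07), and Mcm5 read 0.173 to 0.217 at DR1, against 0.459 to 0.590 at SOL (-1.32 ± 0.09, adjusted p = 1.04e-08). Pold1, the catalytic subunit of a replicative polymerase, was lower by -1.05 ± 0.08 (adjusted p = 2.71e-08), but was not called by the mean of its probes. Under normexp correction the 3 lower calls were lost and Gmnn kept its call.

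The comparison with all sites shows which genes set DR1 apart from each of them, all tests sharing the DR1 arrays. Called higher in DR1 than in each of the 4 other sites were 39 genes (0.239% of those tested), 30 with a symbol, and called lower than in each were 34 (0.208%), 21 with a symbol. DR1 was called in 6.36% of genes against PS, 5.14% against DR4 and 7.5% against DR6. Against SOL, 18 of the 39 were measured at both sites and 21 have only a bound. Ckap2, at 0.0118 to 0.0314 over all arrays of PS, DR4 and DR6, was among those with a bound. Apcdd1, an inhibitor of Wnt signals, was measured at both sites, at 0.847 to 1.23 at DR1, against 0.271 to 0.409 at PS, 0.208 to 0.263 at DR4, 0.231 to 0.249 at DR6 and 0.181 to 0.287 at SOL (2.24 ± 0.15), but its other kept probe gave 0.28, so the gene has no agreed size of change. Cep55, of the midbody, read 0.0613 to 0.136 at DR1, against 0.0134 to 0.0372 at PS, DR4 and DR6 and 0.0198 to 0.0234 at SOL, where no array was well above background, so that it was at least 1.52-fold higher than at SOL. Mphosph1, a kinesin of cytokinesis, read 0.0497 to 0.131 at DR1, against 0.0123 to 0.0432 at the other stream and stack sites and 0.0180 to 0.0259 at SOL, again not well above background there, for a bound of 1.66-fold. Sgol1, the guardian of chromatid cohesion, read 0.188 to 0.262 at DR1, against 0.0351 to 0.107 at SOL, where 2 arrays were well above background. Of the 31 cell division genes tested, 4 were in this group, beside 0.239% of all genes; the reading of several others as mitotic genes was made after their values were seen. Examples outside cell division were Pnoc and Gabrg1, of neuronal signalling, with bounds of 1.49-fold and 2.86-fold, Comp, a cartilage matrix protein at least 3.72-fold higher than at SOL (limma adjusted p = 4.8e-08), F13a1, a clotting factor subunit also made by macrophages, with a bound of 2.33-fold, and Slamf9, an immune receptor (0.702 to 0.780 at DR1, 0.271 to 0.308 at SOL). Lcn2 and Myh4 were in the group too. With normexp correction 4 genes were called above and 2 below all other sites, and Ckap2, Cep55, Mphosph1, Sgol1, Pnoc, Gabrg1, Comp, F13a1 and Slamf9 each lost the call against SOL.

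Ddx25, an RNA helicase of the testis, was the largest measured fall among genes with a symbol and was lower than at each other site: 1.60, 0.650, 1.38 and 1.41 at DR1, against 14.2, 9.89, 12.9 and 9.95 at SOL (-3.28 ± 0.23, limma adjusted p = 8.87e-09), with 6.95 to 17.6 at PS, DR4 and DR6. Trim55, a muscle ubiquitin ligase, read 3.46, 1.90, 6.31 and 2.13 at DR1, against 18.6, 15.9, 18.0 and 13.2 at SOL (-2.41 ± 0.26, adjusted p = 1.06e-06). Its DR1 arrays differed among themselves widely, all below the lowest SOL array. Dhx38, a splicing helicase, read 0.180 to 0.307 at DR1, against 0.741 to 0.818 at SOL (-1.70 ± 0.12), and Vps52, of vesicle retrieval, read 0.0951 to 0.151 at DR1, against 0.456 to 0.544 at SOL (-1.93 ± 0.11). Nle1 (-1.29 ± 0.13) and Rrp12 (-1.51 ± 0.20), both of ribosome assembly, were also below every other site. Ercc2, a helicase of DNA repair, had only a bound of 1.44-fold, with no DR1 array and 2 SOL arrays well above background. Vps52, Nle1, Rrp12 and Ercc2 lost their calls against SOL under normexp correction and Dhx38 with quantile scaling added, and Ddx25 and Trim55 kept theirs. The DR1 slide alone came from the older design file, and a part of probe or slide in genes that differ at DR1 from all sites was not tested.

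**Figure D3:**
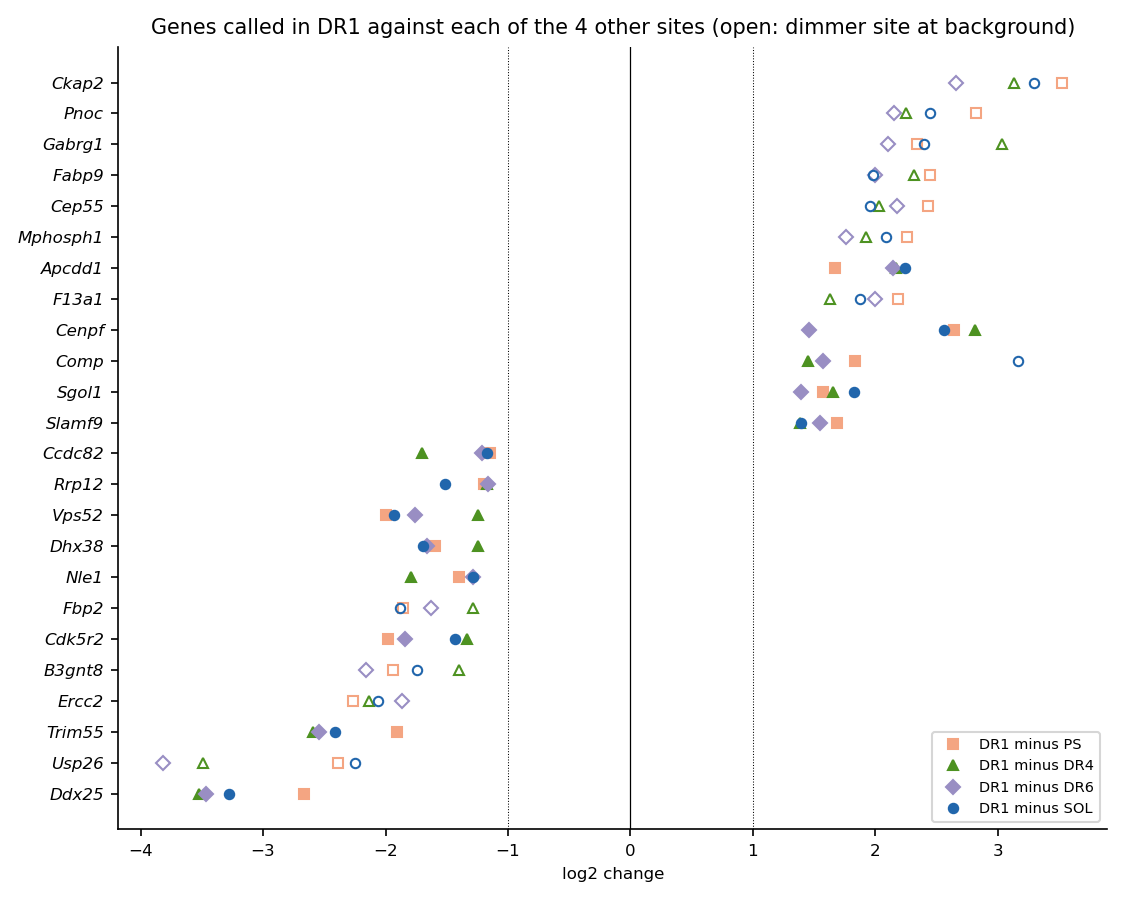
Log2 change of DR1 against PS, DR4, DR6 and SOL for 12 genes called higher and 12 called lower in DR1 than in each other site; filled points are measured at both sites, open points are fitted changes in which the dimmer site had no array well above background, so that their place has no exact meaning, and dotted lines mark 2-fold. Of the genes with filled points in all 4 comparisons, which share the DR1 arrays, Ddx25 lies furthest from 0.

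Genes that are higher in male than in female mouse liver were higher at DR1 in 10 of 21 members tested and lower in none (median 0.71), although all mice of both pools were male. Mup5, a major urinary protein, read 126, 91.8, 124 and 124 at DR1, against 9.97, 12.8, 13 and 14.0 at SOL (3.23 ± 0.11, limma adjusted p = 7.22e-13). Cyp4a12, a hydroxylase of fatty acids, read 20.1, 22.8, 20.8 and 19.4 at DR1, against 2.53, 2.63, 2.25 and 2.28 at SOL (3.1 ± 0.07, adjusted p = 3.95e-15). Elovl3, an elongase of very long fatty acids, read 29.1, 28.8, 28.1 and 29.7 at DR1, against 4.18, 3.63, 3.55 and 3.65 at SOL (2.95 ± 0.05, adjusted p = 6.53e-16). Moxd1, a monooxygenase-like protein, changed by 3.16 ± 0.09. The sites did not share 1 order: Elovl3 was highest at DR6, 40.7 to 44.0, and at PS, 3.93 to 4.19, it overlapped SOL, while Cyp4a12 was 8.87 to 9.91 at PS and 3.04 to 3.33 at DR6. Mup genes are near-identical copies whose probes can share signal.

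Of 22 female-biased genes tested, 5 were called lower at DR1 and 1 higher (median -0.42). Hao3, a hydroxyacid oxidase, read 2.28, 1.55, 2.30 and 2.17 at DR1, against 7.36, 6.31, 7.25 and 6.47 at SOL (-1.74 ± 0.12, limma adjusted p = 4.1e-09), and Abcd2, a peroxisomal transporter, changed by -1.65 ± 0.19. Sult1e1, an estrogen sulfotransferase, was the exception, at least 1.84-fold higher at DR1 (adjusted p = 4.72e-05), with no SOL array well above background. Under normexp correction Abcd2 and Sult1e1 lost their calls. In the growth hormone and STAT5 list, 3 of 19 were called higher: Socs2, the feedback inhibitor that STAT5 induces, read 2.40, 2.90, 2.51 and 3.08 at DR1, against 0.710, 0.637, 0.629 and 0.686 at SOL (2.03 ± 0.08, adjusted p = 5.27e-12). Igf1, the circulating growth factor made in liver, read 68.3 to 73.8 at DR1, against 32.1 to 35.6 at SOL (1.08 ± 0.05), and Egfr, the EGF receptor, read 40.0 to 42.6 at DR1, against 15.2 to 16.1 at SOL (1.39 ± 0.04). The other kept probes gave 0.83 and 1.755 for Igf1 and 0.54 to 1.53 for Egfr. All 3 genes were higher still or as high at DR4, and all 3 kept their calls under normexp correction.

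Glucocorticoid-responsive genes split: 6 of 17 tested were called higher and 2 lower (median 0.36). Sgk, a kinase induced by glucocorticoids, read 44.0 and 60.3 on the 2 DR1 arrays without an outlier spot, against 6.07, 6.37, 6.78 and 6.49 at SOL (3.00 ± 0.10, limma adjusted p = 5.6e-12). Lpin1, a phosphatase of triglyceride synthesis and a coactivator of fasting genes, read 47.3 to 55.2 at DR1, against 14.3 to 17.1 at SOL (1.67 ± 0.06). Pdk4, the kinase that shuts pyruvate out of the citric acid cycle in fasting, went the other way, with 14.6, 16.3, 12.1 and 15.3 at DR1, against 41.8, 39.5, 31.8 and 32.3 at SOL (-1.31 ± 0.10, adjusted p = 2.02e-08). Serpina6, the carrier of glucocorticoids in blood, was lower by -1.13 ± 0.09. Per1, a clock gene that glucocorticoids induce, gave -0.13 ± 0.12 (adjusted p = 0.398).

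**Figure D4:**
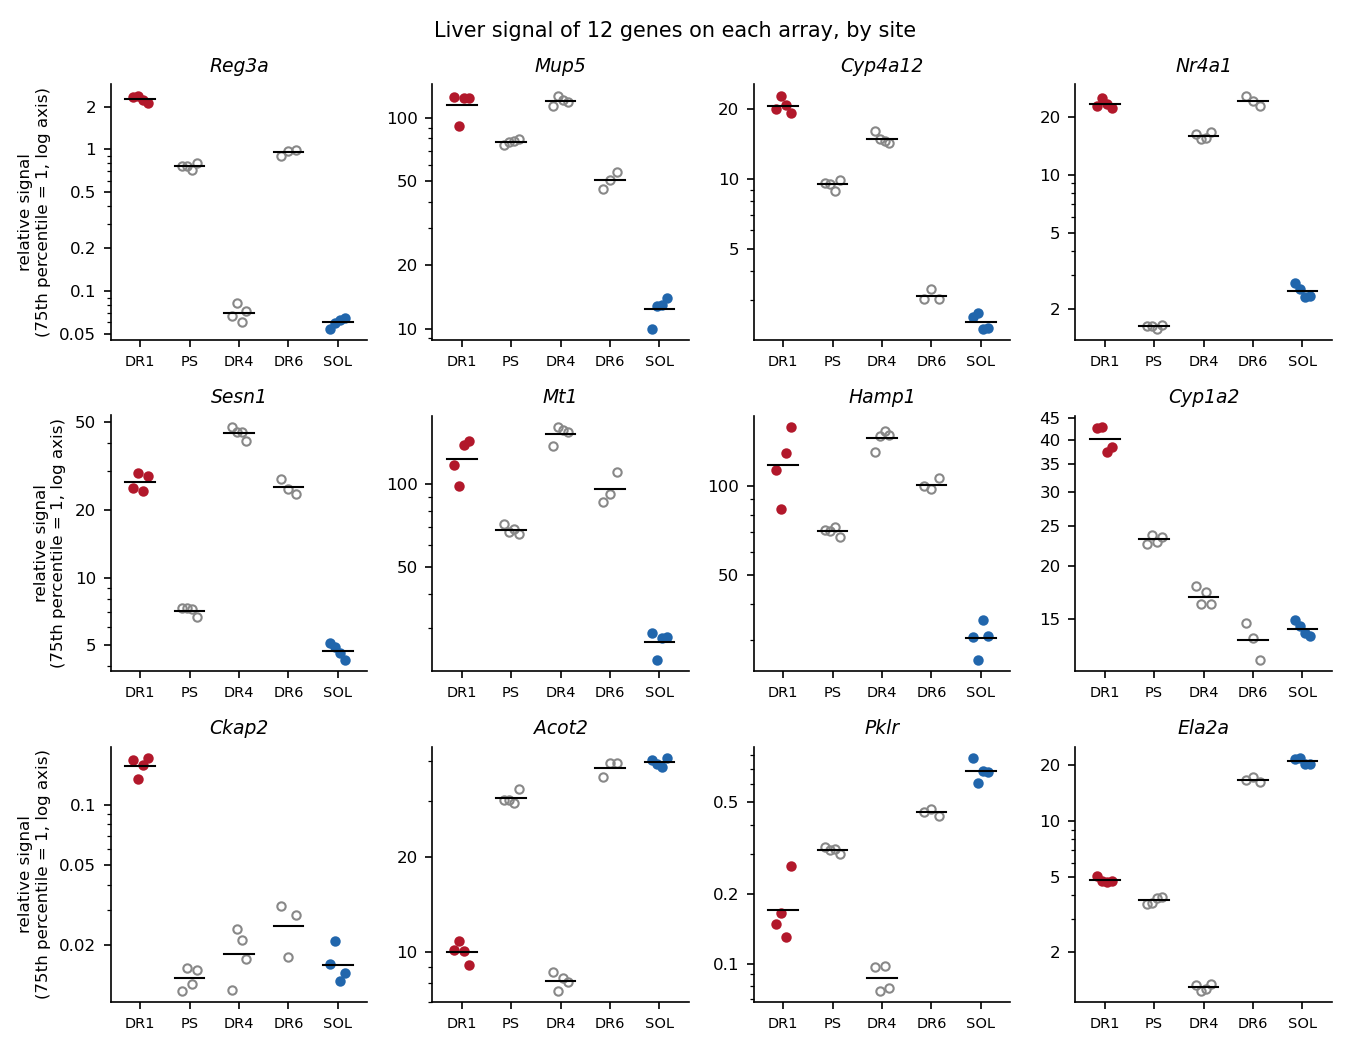
Relative signal (log axis, 1 is the 75th percentile of an array) of 12 genes on every array, by site; points are arrays, which repeat 1 pool of 9 livers per site, and bars are means on the log scale. The 12 genes were picked among called ones, and the 4 DR1 arrays do not overlap the 4 SOL arrays in any panel, as for 35.9% of all genes tested. PS, DR4 and DR6 (open grey points) lie at different heights from gene to gene.

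Genes of fatty acid oxidation were lower at DR1. Of 48 PPARA targets and oxidation genes tested, 11 were called lower and none higher (median -0.47), 41 of the 48 lay below 0, and 8 to 10 were called lower across the scalings and background settings. Acot2, a mitochondrial thioesterase of fatty acyl-CoA, read 10.2, 10.9, 10.1 and 9.12 at DR1, against 40.4, 39.3, 38.4 and 41.0 at SOL (-1.98 ± 0.06, limma adjusted p = 3.18e-13). Pex11a, which divides peroxisomes, read 2.88 to 3.36 at DR1, against 7.10 to 8.08 at SOL (-1.34 ± 0.07), and Decr2, a peroxisomal reductase, read 16.8 to 19.3 at DR1, against 34.6 to 48.5 at SOL (-1.26 ± 0.11). Pctp, a phosphatidylcholine transfer protein, read 0.630, 0.680, 0.535 and 0.388 at DR1, against 2.49, 2.60, 2.25 and 2.21 at SOL (-2.13 ± 0.14, adjusted p = 3.57e-09). Ppara itself differed little, at 2.08 to 2.30 at DR1 and 2.62 to 2.77 at SOL (-0.30 ± 0.04). Acot2 was 7.57 to 8.65 at DR4, 29.5 to 32.7 at PS and 35.8 to 39.6 at DR6, so DR1 lay next to DR4. None of 67 oxidative phosphorylation genes was called (median 0.05).

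Lipid and sugar storage genes leaned lower at DR1, with calls in both directions. Of 34 fatty acid and triglyceride synthesis genes tested, 4 were called lower and 2 higher (median -0.42), and 10 lay above 0. Of 36 lipid droplet and lipoprotein genes, 4 were called lower and 1 higher (median -0.25). Gluconeogenesis and glycolysis genes gave 3 lower and 1 higher call of 33 (median -0.13). Pklr, liver pyruvate kinase, which insulin and sugar induce, read 0.149, 0.165, 0.130 and 0.264 at DR1, against 0.778, 0.604, 0.687 and 0.678 at SOL (-2.0 ± 0.16, limma adjusted p = 3.3e-08). Thrsp, a driver of fatty acid synthesis that thyroid hormone and sugar induce, read 5.53, 6.33, 6.20 and 6.61 at DR1, against 20.7, 22.1, 21.7 and 23.5 at SOL (-1.84 ± 0.07, adjusted p = 6.44e-12). Mogat1, which makes diacylglycerol, went up, at 3.07, 2.66, 3.25 and 3.1 at DR1, against 0.594, 0.452, 0.504 and 0.499 at SOL (2.56 ± 0.08, adjusted p = 3.11e-13). Cidec, a lipid droplet protein, was lower at 29.0 to 33.1, against 77.0 to 84.9 on the 3 SOL arrays with a value (-1.40 ± 0.10). Among 30 cholesterol synthesis genes, 3 were called lower and none higher. Soat2, which esterifies cholesterol, read 0.138, 0.143, 0.141 and 0.152 at DR1, against 0.764, 0.627, 0.541 and 0.581 at SOL (-2.12 ± 0.09, adjusted p = 1.67e-11), and Stard4, a sterol carrier, changed by -1.38 ± 0.06 through its brightest probe, while its other kept probes gave -0.79 and -0.56 and their mean was not called. Neither is an enzyme that makes sterols, and the list's median was -0.19. Pklr and Soat2 lost their calls under normexp correction with quantile scaling.

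Secreted lectins of the Reg family had the highest median of the lists tested: 5 of 6 members tested, of 7 listed, were called higher (median 3.87, or 2.39 with members below background at SOL set at their bound). Reg3a read 2.36, 2.38, 2.23 and 2.11 at DR1, against 0.0542, 0.0599, 0.0626 and 0.0650 at SOL (5.23 ± 0.08, limma adjusted p = 1.37e-16). At SOL 2 of the 4 arrays were well above background, so the size of this change is uncertain. It was 0.720 to 0.805 at PS, 0.0608 to 0.0819 at DR4 and 0.905 to 0.991 at DR6. Pap read 18.7, 19, 19 and 17.1 at DR1, against 0.775, 0.995, 0.753 and 0.785 at SOL (4.49 ± 0.09, adjusted p = 1.18e-15), and Reg2 read 91.5, 92.0, 84.3 and 92.7 at DR1, against 18.9, 16.6, 14.6 and 16.4 at SOL (2.44 ± 0.06, adjusted p = 2.88e-14). Reg3g was higher at DR1 by at least 3.86-fold (adjusted p = 3.79e-08). For Reg3d the bound was 5.04-fold (adjusted p = 3.16e-08). Both lost their calls under normexp correction, while Reg3a, Pap and Reg2 kept theirs. The exocrine pancreas also makes these lectins, and all of its 20 markers tested lay below 0 in the same comparison, with a median of -0.88 and 5 called lower. Ela2a, an elastase of acinar cells, read 5.11, 4.76, 4.74 and 4.75 at DR1, against 21.6, 21.7, 20.2 and 20.1 at SOL (-2.11 ± 0.05, adjusted p = 1.19e-14), and Ctrb1, chymotrypsinogen, changed by -1.40 ± 0.11. The part of pancreatic RNA in the Reg values was not tested.

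Acute phase proteins, which liver secretes in inflammation, did not rise as a list, with a median of -0.15. It was 0.0 with the 7 members without a measured change set at their bound or at 0, and -0.14 to 0.07 across the scalings and background settings. Still, 5 of 42 were called higher (11.9%, beside 3.53% of all genes) and none lower. A2m, a protease inhibitor, read 2.21, 2.05, 2.16 and 1.77 at DR1, against 0.222, 0.186, 0.202 and 0.206 at SOL (3.32 ± 0.08, limma adjusted p = 1.19e-14), and was higher still at PS, 2.83 to 2.92. Saa3, a serum amyloid, read 260, 242, 213 and 226 at DR1, against 66.0, 78.6, 69.6 and 75.5 at SOL, with 1 DR1 array saturated (1.70 ± 0.08, adjusted p = 1.02e-10). Both called ligands of the EGF receptor were raised with the receptor: Btc, betacellulin, read 2.86, 3.21, 3.29 and 4.37 at DR1, against 0.386, 0.294, 0.345 and 0.317 at SOL (3.34 ± 0.10, adjusted p = 2.86e-13), and Areg, amphiregulin, was at least 2.31-fold higher (adjusted p = 1.31e-11). Btc was far higher at DR4, 13.9 to 14.4, and DR6, 8.59 to 8.88. The chitinase-like lectins Chi3l3 and Chi3l4, products of macrophages and neutrophils, were at least 13.7-fold and 7.51-fold higher at DR1, and DR4 exceeded DR1 in both. Areg, Chi3l4 and Cyp26a1 lost their calls under normexp correction. Cyp26a1, the enzyme that clears retinoic acid and that retinoic acid induces, was at least 9.79-fold higher (adjusted p = 1.17e-11), and Rarres1, a retinoid-responsive gene, read 31.2 to 42.6 at DR1, against 4.28 to 5.22 at SOL (3.01 ± 0.09). They were the 2 higher calls among 32 retinoid genes tested (6.25%, beside 3.53% of all genes), with a median of -0.10. Another 2 (6.25%, beside 2.55% of all genes) were called lower: Adh1, an alcohol dehydrogenase that also oxidises retinol, at 74 to 112 at DR1, against 180 to 241 at SOL (-1.17 ± 0.11), and Dhrs4, a retinal reductase, at 5.67 to 6.87 at DR1, against 12.3 to 14.1 at SOL (-1.06 ± 0.06). Adh1 lost its call under normexp correction and by the mean of its probes.

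Sulfur amino acid genes gave 2 higher calls and 1 lower of 33 (6.06% and 3.03%, median -0.07). Over all genes tested the shares were 3.53% and 2.55%. Cth, which makes cysteine, read 182, 197, 183 and 161 at DR1, against 61.8, 63.0, 59.2 and 60.1 at SOL (1.56 ± 0.06, limma adjusted p = 2.34e-12), and Mpst, a sulfurtransferase, changed by 1.41 ± 0.12. Heat shock genes gave 3 lower calls of 35 (8.57%) and none higher, with a median of -0.03. Hspa1b read 0.148 to 0.188 at DR1, against 0.422 to 0.518 at SOL (-1.45 ± 0.09), and its near-identical copy Hspa1a 0.345 to 0.428, against 0.749 to 0.835 (-1.07 ± 0.07). Both calls were lost under normexp correction. In the circadian list, Arntl, the core activator, read 2.21, 2.25, 2.67 and 1.8 at DR1, against 0.241, 1.24, 1.33 and 1.42 at SOL, and Nfil3, a clock repressor, read 0.905 on SOL array 1 and 6.23 to 6.86 on the other SOL arrays. Both lie in the middle rows, and their calls (1.35 and 1.20) were lost without these rows of SOL array 1 and DR1 array 4, at 0.83 and 0.74. Dbp, a clock output gene in the same rows, gave -0.04 with and -0.33 without them, and Per3, a clock repressor gene, stayed lower at DR1 (-1.62 ± 0.15, adjusted p = 1.86e-07), with 1 DR1 array well above background and its call lost under normexp correction. Of 15 thyroid axis genes tested, 2 were called higher and 4 lower (median 0.13). Slco1c1, a thyroid hormone transporter, was at least 6.36-fold higher at DR1 (adjusted p = 2.88e-08), while Serpina7, a thyroid hormone carrier, read 0.636 to 0.731 at DR1, against 1.42 to 1.46 at SOL (-1.09 ± 0.06), and both lost their calls under normexp correction. Thrsp was another of the lower calls.

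**Figure D5:**
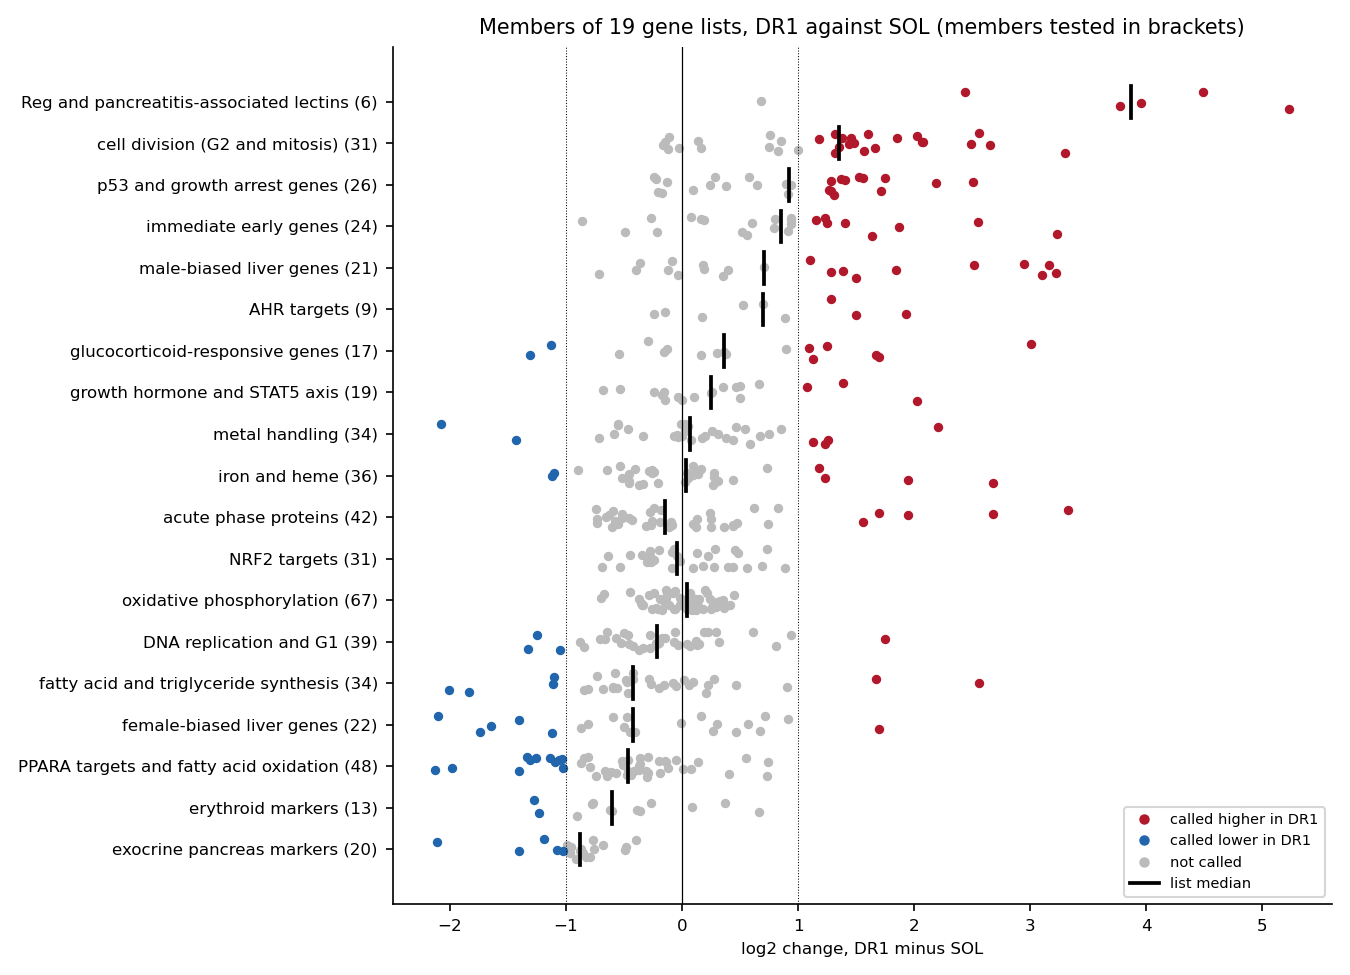
Log2 change, DR1 minus SOL, of each tested member of 19 gene lists, called higher (red), called lower (blue) or not called (grey); bars are list medians and dotted lines mark 2-fold. Cell division genes (19 of 31 called higher) and replication genes (1 higher and 3 lower of 39) lie apart, and all 20 exocrine pancreas markers lie below 0.

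Markers of other cells and tissues differed between the pools. Erythroid markers were lower at DR1 in 2 of 13 members tested and higher in none (median -0.61), with a summed relative signal of 381 to 419 at DR1 and 757 to 784 at SOL; Hba-a1, alpha globin, read 145, 118, 146 and 144 at DR1, against 329, 304, 342 and 322 at SOL (-1.23 ± 0.07, limma adjusted p = 4.51e-10). Stellate cell and fibroblast markers gave 3 higher calls of 20: Col3a1, a fibrillar collagen, read 2.51 to 3.20 at DR1, against 1.12 to 1.23 at SOL (1.32 ± 0.08), Lum, lumican, changed by 1.59 ± 0.06 and Col1a1 by 1.18 ± 0.11. The median of that list was 0.03, with 10 of the 20 above 0, and its summed signal overlapped, 119 to 137 at DR1 and 114 to 126 at SOL. These 3 calls were lost under normexp correction, with or without quantile scaling. Kupffer cell markers gave 1 lower call of 19 (5.26%, beside 2.55% of all genes), Cd68 (-1.02 ± 0.10). The endosomal genes Cd63 (-1.68 ± 0.08) and Psap (-1.02 ± 0.06) were lower too. With Cd68 they were the 3 lower calls of 43 autophagy and lysosome genes tested (6.98%). No gene of that list was called higher, and its median was -0.04. Cd68 and Psap fell short of 2-fold when some single arrays were left out. Neuroendocrine genes gave 4 higher calls and 1 lower of 16: Chgb, a granin of secretory granules, was at least 14.3-fold higher at DR1 (adjusted p = 1.19e-14), while Gcg, proglucagon, read 0.0735 to 0.121 at DR1, against 0.275 to 0.321 at SOL (-1.60 ± 0.15). Of 17 lung, kidney, muscle and fat markers tested, 5 were called higher and none lower (median 0.45), and 11 lay above 0. The sign of that median was not kept across the scalings and background settings (-0.05 to 0.46). Of the 5, Sftpc, a surfactant protein of lung, was at least 5.43-fold higher (adjusted p = 2.82e-08). Myh4, a myosin of fast muscle, read 2.74 to 3.28 at DR1, against 0.370 to 0.496 at SOL (2.85 ± 0.09). Hba-a1, Gcg, Sftpc and Cd68 lost their calls under normexp correction, and Chgb and Myh4 kept theirs. The part of these cell types in the changes of the other genes was not tested.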

How the data were processed

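Agilent 1-colour arrays were scanned by the study's laboratory, and Feature Extraction 9.5.3.1 made the deposited intensity values, per the file headers: background-subtracted, processed signals of 45018 spots per array. The 43379 gene spots (41174 probes) were used. Each array's processed signal was divided by its 75th percentile and taken to log2, spots marked as outliers were left out, spots of 1 probe were averaged, and 23458 probes that exceeded background on 3 or more arrays of any site were kept. A gene was read by its brightest kept probe. Names came from the SOL files, since 5.84% of gene spots carried another name in the DR1 files. The 19 arrays entered a single limma model (version 3.58.1, R 4.3.3) holding a mean per site, followed by Benjamini-Hochberg adjustment over the 16346 genes tested; the script was tested on simulated data. Replicate numbers came from the labels, and same-numbered DR1 and SOL arrays did not deviate together in every case (r = -0.151, 0.483, 0.449 and -0.16), so they were not paired. The number of arrays and of pools limits the precision. The deposited series table, whose values carry no stated scale, differed from the scanner intensity by at most 0.497% and has column medians of 9.72 to 24.8, so it was an alternative only. Genes were named by size of change, by bounds, by position beyond all sites and by list membership. Of the called genes so named, 41 had more than 1 kept probe. All kept probes went in 1 direction for 39 of these, and all passed 2-fold in that direction for 23. The members and gene lists were chosen with earlier results of these data known.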

Additional observations from a re-analysis of the deposited data

Results flagged for a closer look

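In 22 of 247 sets of 4 arrays, 1 set for DR1 and 1 for SOL per gene named above with a value on all 4, 1 array stood far from the other 3; chance gives about 1 in 20 sets. Far here means that the gap to the nearest array filled most of the range of the set. Sets in close agreement can therefore count too. SOL array 1 was the far array for 4 genes, all in its middle rows. Arntl read 0.241 there, against 1.24 to 1.42 on the other SOL arrays. For Ccnb2 the value was 0.171 and the others lay at 0.334 to 0.365. The Dbp signal was 2.11, beside 6.01 to 7.03. Nfil3 stood at 0.905, with the rest at 6.23 to 6.86.

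DR1 array 2 was the far array for 7 genes. Col1a1 read 0.916 there, against 0.638 to 0.667 on the other DR1 arrays. For Ddx25 the value was 0.65 and the others lay at 1.38 to 1.6. The Ercc2 signal was 0.015, beside 0.0174 to 0.0177, with no DR1 array well above background. Hao3 stood at 1.55, with the rest at 2.17 to 2.3. Hba-a1 read 118 there, against 144 to 146 on the other DR1 arrays. For Mup5 the value was 91.8 and the others lay at 124 to 126. The Pex11a signal was 3.36, beside 2.88 to 2.95.

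The other cases fell on several arrays. Areg read 0.116 on DR1 array 3, against 0.131 to 0.133 on its other arrays. On SOL array 2, Bbc3 was 1.19, beside 1.1 to 1.11. The Dusp1 signal of SOL array 4 was 3.15, and the rest lay at 2.92 to 2.93. Ela2a read 5.11 on DR1 array 1, against 4.74 to 4.76 on its other arrays. On DR1 array 1, Kif23 was 0.0742, beside 0.0949 to 0.0964. The Myh4 signal of DR1 array 4 was 2.74, and the rest lay at 3.21 to 3.28. Pap read 17.1 on DR1 array 4, against 18.7 to 19 on its other arrays. On SOL array 2, Pap was 0.995, beside 0.754 to 0.785. The Reg2 signal of DR1 array 3 was 84.3, and the rest lay at 91.5 to 92.7. Reg3d read 0.15 on DR1 array 4, against 0.336 to 0.353 on its other arrays. On SOL array 3, Stard4 was 8.63, beside 9.28 to 9.41.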

How the results depend on the processing

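Dropping the 2-fold limit, taking pools as units and normexp correction changed the counts most. Normexp correction gave 257 calls, 176 higher and 81 lower, with 4 genes above and 2 below each of the 4 other sites, and with quantile scaling added 246, 145 and 101, with 2 and 3. Under normexp correction 4 dim genes changed sign: Bub1 (-4e-04), Kif23 (-0.0275), Mphosph1 (-0.0196) and Sult1e1 (-0.0285). Without the 2-fold limit 7796 genes passed, 4002 higher and 3794 lower, 828 above and 723 below all other sites. With pools as units the counts were 0, 0 and 0. A stricter filter on dim probes left 21 genes below all other sites. Without each array in turn the calls ranged over 937 to 1078, 550 to 616 higher and 387 to 462 lower, with 33 to 42 genes above and 25 to 44 below all other sites. Leaving out the middle rows of SOL array 1 and DR1 array 4, chosen after seeing the data, gave 1007 calls and kept 963 of the 994. The fit with the replicate block gave 997 calls, 577 higher and 420 lower, and 991 of the 994 remained. Median and quantile scaling, no filter, the mean of all probes, outlier spots kept, the series table and a fit of 8 arrays kept each count they gave within 1.5 times. Pools as units and the 8-array fit give no count against all 4 other sites. The cause of these changes was not tested. Dim probes limit the bounds.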

Other observations

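Among lists not described above, none of 63 cytosolic ribosomal protein genes and none of 37 proteasome genes was called by limma, with medians of 0.05 and 0.12 on the log2 scale. Bile acid genes gave 2 higher calls of 35, urea cycle and amino acid genes 1 higher call of 45, and interferon-response genes 1 higher and 1 lower call of 42. Over all genes tested, 3.53% were called higher and 2.55% lower. Of 19 gut and gallbladder epithelium markers tested, 4 were called lower and none higher, with a median of -0.12. For 3 of these calls only a bound is known, and 0 to 4 were called lower across the scalings and background settings. Of 12 cholangiocyte markers tested, and of 14 MHC class II and dendritic markers tested, none was called.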
